A study of Bos taurus with 96 samples.

Results

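LMOD1 (ENSBTAG00000021576) encodes leiomodin 1, and it was followed here as 1 of the 24616 genes counted in liver and skeletal muscle of Holstein dairy cows. The gene was chosen for its difference between fertility genotypes in muscle at early lactation, so its values in that comparison are given as a description without a test. Gene expression was measured by RNA-seq of polyA RNA in 96 libraries from 16 cows, each cow giving liver and muscle at late pregnancy (LP), early lactation (EL) and mid-lactation (ML). Of these cows, 8 carried high genetic merit for fertility (Fert+) and 8 carried low merit (Fert-), which gave 8 libraries per tissue, time-point and genotype. All cows were of mostly Holstein ancestry and were kept in 1 herd. Liver and muscle were sampled by biopsy, the muscle from the semitendinosus of the hind limb. The genotypes are groups of cows picked on breeding values for calving interval and not carriers of a known allele, and no gene was altered in either.

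Leiomodins are actin-binding proteins related to the tropomodulins, which cap the pointed end of actin filaments. A leiomodin instead starts new filaments and lets the pointed end grow. Leiomodin 1 is best known from smooth muscle of vessels and gut, where its gene is switched on by serum response factor (SRF) with its cofactor myocardin, whereas leiomodin 2 and leiomodin 3 serve the thin filaments of heart and skeletal muscle.

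The library totals ran from 15279337 to 22018740 counts in muscle and from 14966847 to 26358063 in liver. LMOD1 received 294 to 1311 counts per muscle library and 29 to 297 per liver library, so the liver values carry more counting error. In the RefSeq annotation of assembly ARS-UCD2.0, a later build than the files use, the uncharacterised gene LOC112441886 overlaps LMOD1. Reads of overlapping genes cannot be told apart where strand was not used in counting. The study's methods list the counting options and name none for strand. Levels are CPM, counts scaled to a common library size, with library sizes corrected by the TMM factors of edgeR within a tissue, and they are not divided by gene length. The tissue labels were checked on marker genes: the 10 skeletal muscle markers measured summed to between 36677 and 203630.5 CPM in each muscle library, and the 6 of them counted in liver to between 15.8 and 52.1 CPM. The 10 hepatocyte markers summed to between 76450.2 and 230946 CPM in liver, and the 7 of them kept in muscle to at most 7.62 CPM at LP, 39.99 CPM at EL and 165.7 CPM at ML in a muscle library. A set of 13 libraries stood apart by holding 50 or more counts for 11 to 17 of 19 genes, whereas the other 83 did so for 0 to 3 of them. These genes had a median of at most 2 counts in each tissue. Of the 13 libraries, 8 were from liver, and the 5 from muscle all came from Fert- cows 164 and 419.

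LMOD1 was more abundant in muscle than in the liver of the same cow at every time-point. The level in muscle was 6.72-fold that in liver (difference of 2.75 ± 0.54 in log2(CPM + 1), SD over 16 cows, TMM factors over all 96 libraries), and the fold of single cows ran from 3.87 to 13.1. Muscle was higher in 48 of 48 pairs of libraries and in 16 of 16 cows (exact permutation test over cows, two-sided, p = 3.05e-05, the smallest that 16 cows can give). In bulk tissue, fewer cells of a type and less RNA per cell cannot be told apart, which holds for each level given here.

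In muscle at LP, LMOD1 ran from 27.2 to 74.8 CPM with a median of 45.2 in Fert+ cows, and from 23.9 to 42.4 CPM with a median of 34.3 in Fert- cows. The groups overlapped, although 4 Fert+ cows lay above every Fert- cow. At EL the Fert+ values ran from 23.2 to 56.4 CPM with a median of 42.9, and the Fert- values from 12.04 to 20.9 CPM with a median of 17.4. No Fert- cow reached the lowest Fert+ cow at EL. At ML the range was 44.1 to 73.1 CPM (median 58.1) in Fert+ and 38.1 to 55.3 CPM (median 43.5) in Fert- cows. The ML groups overlapped, with 8 of 8 Fert+ cows above the Fert- median.

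**Figure D1:**
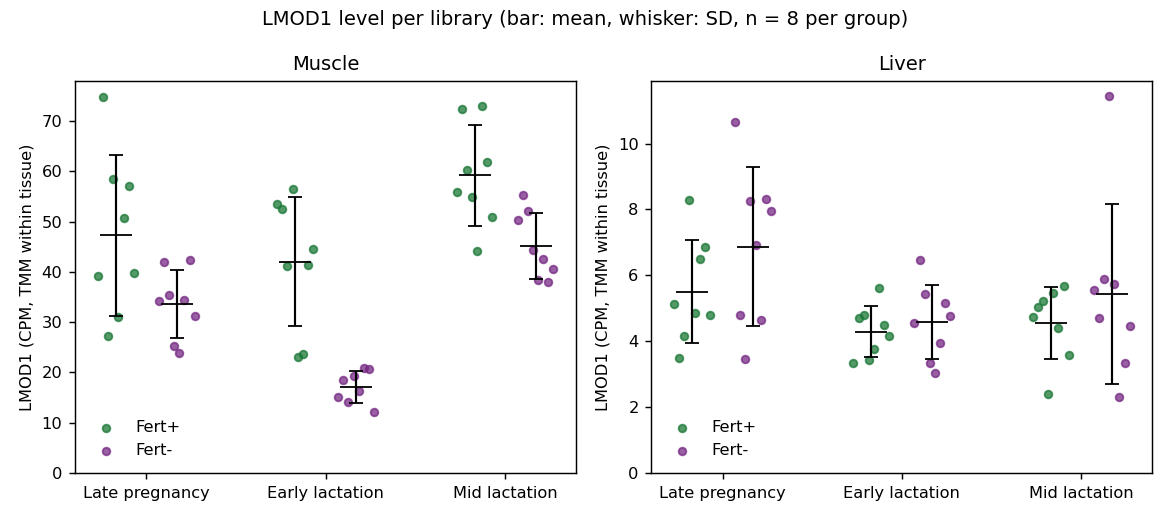
LMOD1 level in CPM with TMM factors in each library (points) of muscle (left) and liver (right) by time-point for Fert+ and Fert- cows, with the mean (bar) and SD (whisker) of 8 libraries. In muscle the 8 Fert+ libraries at EL sit between 23.2 and 56.4 CPM, above all 8 Fert- libraries, while the groups overlap at LP, at ML and in liver.

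Ordered by the mean, LMOD1 in muscle was highest in Fert+ cows at ML (59.2 ± 9.99 CPM, SD, n = 8), followed by Fert+ at LP (47.3 ± 15.97), Fert- at ML (45.2 ± 6.58), Fert+ at EL (42.03 ± 12.8), Fert- at LP (33.6 ± 6.77) and Fert- at EL (17.1 ± 3.22). The ranges of each pair of neighbours in this order overlapped except for the last pair, where the lowest Fert- cow at LP had 23.9 CPM and the highest at EL 20.9 CPM. With TMM factors Fert- muscle at EL was thus the 1 group that lay apart from its neighbour. As CPM of the library total, it ran from 17.1 to 25.9 and Fert- muscle at LP from 22.3 to 41.9, so these groups overlapped. LMOD1 was chosen on a comparison that uses these EL libraries, so their place in the order is a description.

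The comparison of genotypes asks whether cows of divergent fertility differ in gene expression at a given stage. In muscle at EL, where LMOD1 was chosen, the mean was 2.46-fold higher in Fert+ cows (log2 fold change 1.29, SE 0.19, edgeR), and Fert+ was higher in 64 of 64 pairs of cows. Among the 12035 genes tested there, 0.0249% were higher in Fert+ with no overlap and 0.00831% passed an adjusted p of 0.05 in that direction (edgeR quasi-likelihood test). These shares stand for 3 genes and 1 gene, and LMOD1 is among the genes tested. They are therefore no background independent of LMOD1. Without each of the 16 cows in turn the log2 fold change was between 1.23 and 1.39. As all 64 pairs pointed the same way, leaving out a cow could hardly turn the direction, and this range is a description.

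At LP the log2 fold change was 0.48 (SE 0.18), with Fert+ higher in 48 of 64 pairs. It did not pass the threshold over 11954 genes (edgeR quasi-likelihood test, adjusted p = 0.637), and taken alone LMOD1 had an exact permutation p of 0.0490, or 0.122 adjusted over the 5 comparisons of genotypes outside muscle at EL. At ML the log2 fold change was 0.39 (SE 0.10), with Fert+ higher in 57 of 64 pairs. Over 12001 genes the adjusted p was 0.490 (edgeR quasi-likelihood test), whereas the exact permutation test of LMOD1 alone gave p = 0.00528, adjusted over the same 5 comparisons to 0.0264. These are the same cows as at EL, so the 3 time-points are not independent samples of the genotypes. No gene passed an adjusted p of 0.05 in muscle at LP or ML (0% of those tested), while 6.69% at LP and 7.65% at ML had an unadjusted p under 0.05.

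**Figure D2:**
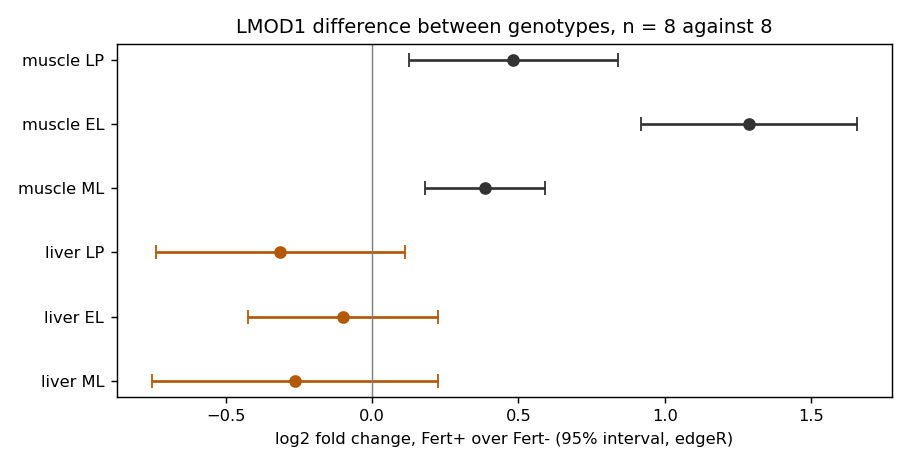
Log2 fold change of LMOD1, Fert+ over Fert-, by tissue and time-point (points) with its 95% interval from edgeR (whiskers), n = 8 against 8. The muscle estimates are 0.48, 1.29 and 0.39 at LP, EL and ML, and the intervals of the liver estimates span 0 at each time-point. LMOD1 was chosen on muscle at EL, so the interval there is a description that does not allow for the choice and is no test.

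The difference at EL went with a fall of LMOD1 within the Fert- cows. From LP to EL the level dropped in 8 of 8 Fert- cows, with changes from -1.31 to -0.37 in log2(CPM + 1) and a mean of -0.93 ± 0.35 (SD, n = 8). In cow 1179 LMOD1 went from 31.3 to 12.04 CPM, and in cow 829, with the smallest change, from 25.3 to 19.3 CPM. In Fert+ cows the mean change was -0.16 ± 0.55, with 5 cows lower and 3 higher at EL. Cow 3434 went from 50.6 to 23.6 CPM and cow 756 from 27.2 to 41.1 CPM, so the Fert+ cows did not share a direction.

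From EL to ML LMOD1 went up in 8 of 8 Fert- cows, by 1.36 ± 0.36, and in 7 of 8 Fert+ cows, by 0.53 ± 0.52. The largest rise of a Fert- cow was in cow 426, from 14.1 to 52.1 CPM. Between LP and ML the changes of the genotypes were close, at 0.43 ± 0.28 in Fert- and 0.37 ± 0.39 in Fert+ cows. The low level of Fert- cows at EL was thus followed by an ML level above that of LP in 7 of 8 of them.

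**Figure D3:**
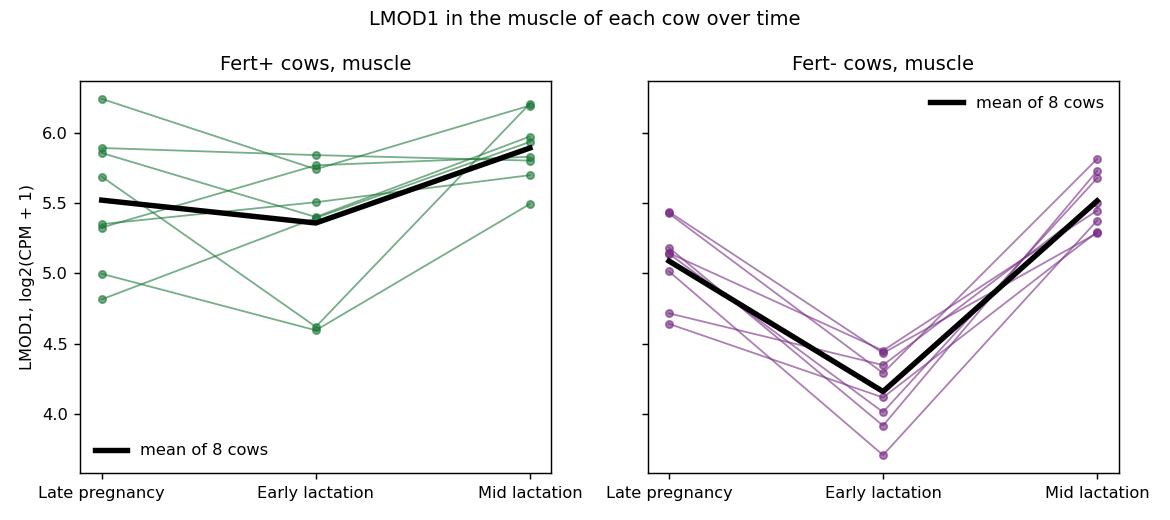
LMOD1 in muscle as log2(CPM + 1) over the 3 time-points for each Fert+ cow (left) and each Fert- cow (right), with a thin line per cow and the mean of 8 cows in black. Each of the 8 Fert- lines drops at EL and returns at ML, whereas 5 Fert+ lines drop and 3 rise from LP to EL.

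On the log2(CPM + 1) scale the genotypes were 0.43 apart at LP, 1.202 apart at EL and 0.38 apart at ML. The LP difference was thus 36.1% of the EL difference in size, and 63.9% (0.77) was a difference in how far the cows changed from LP to EL. The LP difference did not pass its adjusted tests and LMOD1 was chosen for its EL difference, so this split is a description. Against the mean of their own LP and ML values, Fert- cows at EL lay lower in 8 of 8 cases, with a mean difference of -1.14 ± 0.33, and Fert+ cows differed by -0.35 ± 0.50, with 2 of 8 above their own mean. In the fit over 48 muscle libraries, the change from LP to EL differed between genotypes by 0.81 in log2 (SE 0.24) and that from EL to ML by -0.91 (SE 0.24). These values rest on the comparison used to choose LMOD1 and are given without a test. The change from LP to ML, which uses no EL library, differed by -0.10 (95% interval -0.57 to 0.37, unadjusted p = 0.674, edgeR).

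The drop depended in size, and in Fert+ cows in direction, on how libraries were scaled. TMM factors were higher in muscle at EL, at 1.12 on average in Fert+ and 1.29 in Fert- cows against 0.872 to 0.942 in the other muscle groups. Without them, as CPM of the library total, LMOD1 at EL was 45.9 ± 11.4 in Fert+ and 21.9 ± 3.40 in Fert- cows, again with no overlap, and at LP it was 43.5 ± 13.98 and 31.6 ± 6.43. The change from LP to EL was then -0.50 ± 0.40 in Fert- cows, with 6 of 8 lower, and 0.10 ± 0.49 in Fert+ cows, with 5 of 8 higher. A share of 59.7% of the EL difference was then a difference in change. On library totals the median of all genes moved by 0.39 in log2 from LP to EL, against 0.02 with TMM, and relative to that median LMOD1 changed by -0.61 with library totals and -0.59 with TMM.

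**Figure D4:**
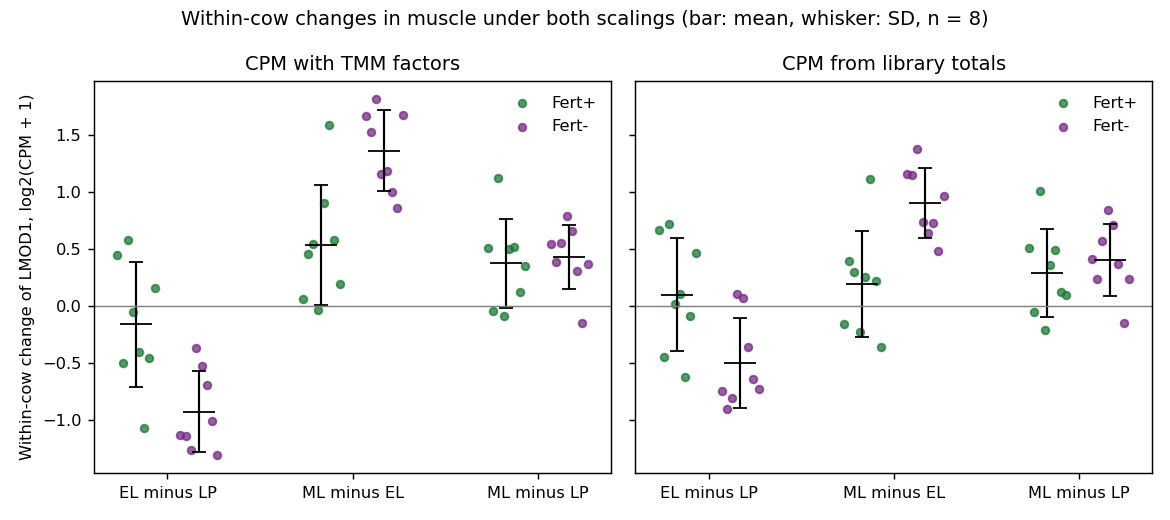
Change of LMOD1 within each cow (points) in log2(CPM + 1) between time-points in muscle for Fert+ and Fert- cows, with TMM factors (left) and from library totals (right), with the mean (bar) and SD (whisker) of 8 cows. From LP to EL the Fert- mean is -0.93 with TMM factors and -0.50 with library totals, and the Fert+ mean is -0.16 and 0.10.

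The 2 cows with muscle libraries in the set that stood apart were both Fert-. Their EL libraries had 15.1 and 18.6 CPM, within the 12.04 to 20.9 CPM of the other 6. Without these cows LMOD1 was lower at EL than at LP in 6 of 6 Fert- cows, with a mean change of -0.86 ± 0.39.

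Over both genotypes LMOD1 in muscle fell from LP to EL and rose from EL to ML. The tests of these changes average the genotypes, but they include the EL libraries on which LMOD1 was chosen. Their p-values do not allow for that choice. The fall was mostly that of Fert- cows, with a mean change in log2(CPM + 1) of -0.93, against -0.16 in Fert+ cows. The within-cow change was -0.55 ± 0.60 from LP to EL (13 of 16 cows lower, exact permutation p = 0.00372, adjusted over 6 changes 0.00745) and 0.95 ± 0.61 from EL to ML (15 of 16 higher, exact permutation p = 6.10e-05, adjusted 0.000366). On library totals the first of these was -0.20 with 9 of 16 cows lower (exact permutation p = 0.151), so that fall was not seen on that scale, and the second was 0.55 with 13 of 16 higher (exact permutation p = 0.00140). Across all 12675 genes, edgeR gave LMOD1 a log2 fold change of -0.57 (SE 0.12, adjusted p = 9.76e-05) and 0.95 (SE 0.12, adjusted p = 6.04e-09). Such calls were common, as 24.8% of genes passed downwards from LP to EL and 28.5% upwards from EL to ML. LMOD1 at ML was above LP in 13 of 16 cows by 0.40 ± 0.33 (exact permutation p = 0.000397, adjusted 0.00119). In edgeR that log2 fold change was 0.38 (SE 0.12, adjusted p = 0.0499), where 2.46% of genes passed upwards. It was just inside the threshold, and outside it with RLE factors, with library totals or without the gene filter. It was also outside without the muscle libraries that stood apart, all from Fert- cows 164 and 419. The adjusted p in these settings was 0.0602 to 0.0971 (edgeR).

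In liver LMOD1 did not pass the test between genotypes at any time-point. At LP it ran from 3.50 to 8.29 CPM (median 4.99) in Fert+ and from 3.46 to 10.6 CPM (median 7.44) in Fert- cows, with a log2 fold change of -0.31 (95% interval -0.74 to 0.11, adjusted p = 0.864, edgeR). At EL the ranges were 3.35 to 5.61 CPM (median 4.33) and 3.02 to 6.45 CPM (median 4.66), and the log2 fold change was -0.10 (95% interval -0.42 to 0.22, adjusted p = 0.810, edgeR). At ML they were 2.39 to 5.68 CPM (median 4.88) and 2.32 to 11.4 CPM (median 5.13), and the log2 fold change was -0.26 (95% interval -0.75 to 0.23, adjusted p = 0.693, edgeR). The groups overlapped at each time-point, and the exact permutation p-values were 0.248, 0.618 and 0.558. Without the libraries that stood apart the log2 fold change was 0.045 at EL and 0.011 at ML, and on library totals it was 0.068 at EL, so the sign at those time-points depended on the setting.

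Within cows LMOD1 in liver was lower at EL than at LP in 12 of 16 cows, with a mean change of -0.37 ± 0.53 in log2(CPM + 1) (exact permutation p = 0.0166, adjusted over 6 changes 0.0249). The edgeR log2 fold change was -0.47 (SE 0.16, adjusted p = 0.0841), which did not pass over 13815 genes. LMOD1 did not pass from EL to ML (0.10 ± 0.53, exact permutation p = 0.512) or from LP to ML (-0.27 ± 0.59, exact permutation p = 0.0840). The liver change from LP to EL was -0.46 ± 0.63 in Fert- and -0.28 ± 0.44 in Fert+ cows, with 6 of 8 cows lower in each, and the difference between the genotypes' changes was 0.22 (SE 0.32, adjusted p = 0.826, edgeR).

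Cows with high LMOD1 in muscle at LP tended to be high at ML once genotype means were removed (Pearson r = 0.52 over 16 cows, permutation p = 0.0397). That relation was 1 of 4 computed and did not pass the adjustment over them (adjusted p = 0.159), and Spearman's rho was 0.40 (permutation p = 0.123, adjusted 0.492). Without the 2 cows farthest from the median r was 0.54. In liver r between LP and ML was 0.02 (permutation p = 0.947, rho -0.03, permutation p = 0.909), and between muscle and liver it was 0.02 at LP (permutation p = 0.941, rho 0.07, permutation p = 0.788) and 0.18 at ML (permutation p = 0.509, rho 0.21, permutation p = 0.423). Each of those 3 had an adjusted p of 0.947, and without the 2 farthest cows r was 0.06, 0.13 and 0.32.

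No relative of LMOD1 passed the adjusted threshold between genotypes in muscle at EL. Only 0.00831% of all genes did, which is 1 of the 12035 tested with LMOD1 among them. A count of 0 among 4 relatives thus does not set LMOD1 apart from them. Besides LMOD1, 4 of the 6 other leiomodins and tropomodulins on the list had a known name here and were tested, LMOD2, LMOD3, TMOD1 and TMOD4. Their median log2 fold change at EL was 0.09 beside -0.02 over all genes, and 0 of 4 had an adjusted p under 0.05. LMOD3, the leiomodin of skeletal muscle thin filaments, averaged 386 ± 141 CPM (SD, n = 8) among Fert+ and 379.8 ± 214 CPM among Fert- cows at EL (log2 fold change 0.01, SE 0.38, adjusted p = 0.994, edgeR). LMOD2, the cardiac and skeletal leiomodin, had a log2 fold change of 0.28 (SE 0.31) and TMOD4, the tropomodulin of skeletal muscle, 0.17 (SE 0.17). TMOD1, a pointed-end capper of striated muscle and red cells, pointed the other way at -0.24 (SE 0.10, unadjusted p = 0.0349, adjusted p = 0.383), where 6.1% of all genes were lower at an unadjusted p under 0.05.

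Over time, LMOD3 fell from LP to EL by 1.08 in log2 (SE 0.18, adjusted p = 2.71e-06, edgeR) and by 0.71 on library totals (adjusted p = 0.000878, both edgeR). Unlike LMOD1, it had no call from EL to ML (0.29, SE 0.18, adjusted p = 0.163, and -0.14 on library totals) and was still lower at ML than at LP (-0.79, SE 0.18, adjusted p = 0.00446), as were 3.62% of all genes. TMOD4 went down and up as LMOD1 did, by -0.51 (SE 0.09, adjusted p = 2.67e-06) and 0.53 (SE 0.09, adjusted p = 9.59e-07), although neither step passed on library totals (-0.15 and 0.12). LMOD2 and TMOD1 had no call in either step with TMM factors (0.07 and 0.08 from LP to EL), and on library totals both rose from LP to EL, by 0.40 and 0.45, as did 57.6% of all genes on that scale, and fell from EL to ML, by 0.59 and 0.54, as did 60.3%.

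Names of other genes were taken from the study's own gene tables, which cover 2153 of the identifiers and favour genes it called or found abundant. The lists below thus hold only part of each pathway. They are no independent evidence of direction or of how often such genes differ between genotypes. Of 15 smooth muscle contractile genes, 4 could be named. In bulk muscle it was not tested whether their RNA came from smooth muscle or from muscle fibres. ACTA2, the actin of vascular smooth muscle, fell from LP to EL (-0.49, SE 0.18, adjusted p = 0.0231) and rose from EL to ML (0.93, SE 0.18, adjusted p = 3.09e-05), and SYNPO2, an actin bundling protein, did so as well (-0.60, adjusted p = 6.17e-07, and 0.93, adjusted p = 2.13e-11). CNN1, the smooth muscle calponin, had no call from LP to EL (-0.55, SE 0.28, adjusted p = 0.0934) and rose from EL to ML (0.93, adjusted p = 0.00373), while the myosin light chain MYL9 had no call in either step (-0.13 and -0.02). Thus 2 of 4 fell and 3 of 4 rose, where 24.8% and 28.5% of all genes did. On library totals 1 of 4 fell from LP to EL, SYNPO2 (-0.25, adjusted p = 0.0109), as did 7.17% of all genes. From EL to ML SYNPO2 and ACTA2 then rose (0.52 and 0.48), as did 8.36%, and MYL9 fell (-0.42, adjusted p = 0.000438), as did 60.3%. The medians of the 4 were -0.52 and 0.93 beside 0.02 and -0.0016 over all genes, or -0.13 and 0.49 beside 0.39 and -0.42 on library totals. Between genotypes at EL 0 of 4 passed an adjusted p of 0.05, where 0.00831% of all genes did. With Fert+ higher, 1 of 4, CNN1 (0.74, SE 0.34), had an unadjusted p under 0.05, where 5.75% of all genes did. On library totals 0 of 4 did.

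Of 15 SRF cofactors and target genes, 6 could be named and were tested over time. MRTFA, an actin-sensing cofactor of SRF, fell from LP to EL (-1.31, SE 0.17, adjusted p = 3.15e-08) and rose from EL to ML (1.66, SE 0.18, adjusted p = 7.43e-11). CCN1, a secreted matrix protein, rose from LP to EL (0.85, SE 0.27, adjusted p = 0.00862), as did 29.1% of all genes. Neither passed the adjusted threshold between genotypes at EL, with MRTFA at -0.02 (SE 0.30) and CCN1 at -1.46 (SE 0.42, adjusted p = 0.218). At LP, beside the LMOD1 difference of 0.48, the early response genes of the list had log2 fold changes of 2.49 for FOS (SE 0.92), 2.49 for JUNB (SE 0.64) and 1.14 for CCN1 (SE 0.41). None passed the adjusted threshold, 4 of 6 had an unadjusted p under 0.05 in that direction (3.14% of all genes), and the summed level ran from 85.1 to 772 CPM among Fert+ and from 50.4 to 229.5 CPM among Fert- cows. At EL the summed level averaged 176 CPM among Fert+ and 224 CPM among Fert- cows, and the log2 fold changes were 1.82 for FOS (SE 0.88) and 0.61 for JUNB (SE 0.63). At ML they were 0.31 (SE 1.09) and 0.27 (SE 0.88), so FOS and JUNB did not pass the adjusted threshold at any time-point. Their part in the LMOD1 difference at LP was not tested.

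Skeletal muscle genes changed over time in the same direction as LMOD1. Of 10 fast fibre genes tested, 9 fell from LP to EL and 9 rose from EL to ML, with medians of -1.28 and 1.59, and the same counts passed on library totals. Examples are MYH1, a fast myosin heavy chain (-1.27, adjusted p = 4.64e-06, and 1.60, adjusted p = 3.82e-08), and MYLPF, the fast regulatory light chain (-1.36, adjusted p = 6.04e-12, and 1.95, adjusted p = 9.78e-17). Of 16 thin filament genes 13 fell and 12 rose (on library totals 10 fell and 3 rose, then 10 rose and 4 fell), with medians of -0.77 and 0.73. ACTA1, the skeletal actin that leiomodins act on, fell by 1.99 (adjusted p = 5.00e-09) and rose by 2.41 (adjusted p = 3.28e-11), and nebulin, NEB, fell by 0.69 and rose by 0.79. Of 8 slow fibre genes 8 fell and 5 rose (on library totals 4 fell, then 3 rose and 1 fell), with medians of -0.65 and 0.54, among them MYL2, the slow regulatory light chain (-1.06 and 1.01). The all-gene shares were 24.8% for falls and 28.5% for rises, and 7.17% and 8.36% on library totals. In the other direction on library totals, 57.6% of all genes rose from LP to EL and 60.3% fell from EL to ML.

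**Figure D5:**
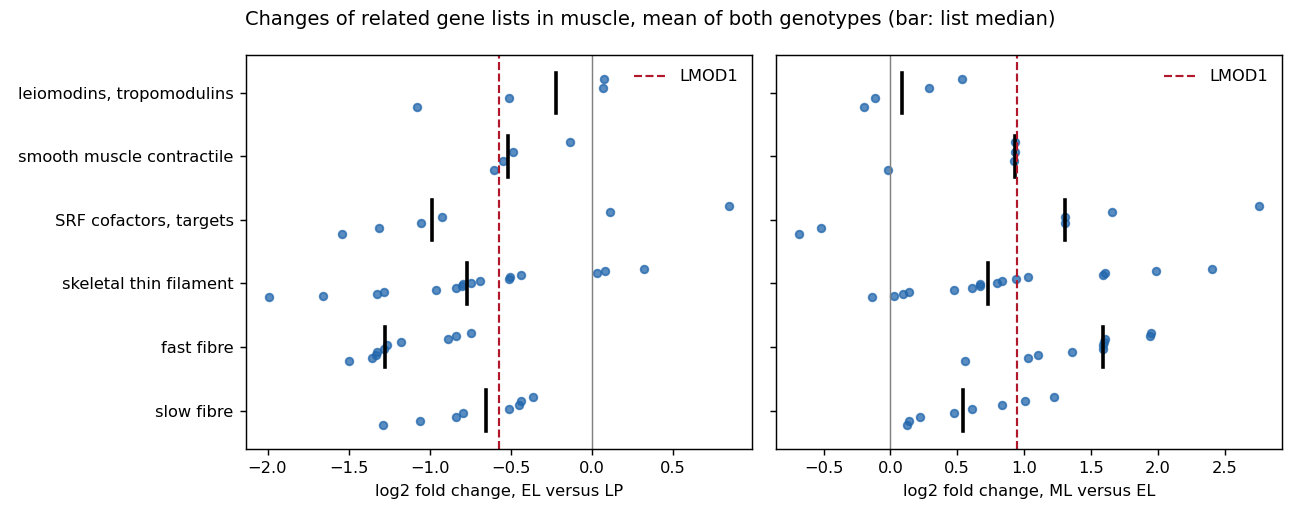
Log2 fold change in muscle from LP to EL (left) and from EL to ML (right), mean of both genotypes with TMM factors, for the named members of 6 gene lists (points, black bar at the list median), with LMOD1 as the dashed line. LMOD1 lies at -0.57 and 0.95, and the fast fibre genes have medians of -1.28 and 1.59.

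Between genotypes at EL the skeletal muscle genes were on the side of LMOD1 without passing an adjusted p of 0.05, which 0.00831% of all genes did. The names favour genes that the study called between these same genotypes. The counts below are therefore a description, and the all-gene shares are no fair background for them. With Fert+ higher at an unadjusted p under 0.05 were 7 of 9 fast fibre genes (median 0.82), 11 of 16 thin filament genes (median 0.48), 7 of 10 skeletal muscle markers (median 0.65) and 4 of 8 slow fibre genes (median 0.37), against 5.75% of all genes and an all-gene median of -0.02. On library totals these counts were 7, 7, 6 and 1, against 1.72% of all genes. TPM2, the beta-tropomyosin, was at 1.01 (SE 0.27, adjusted p = 0.203) and ACTA1 at 1.59 (SE 0.50, adjusted p = 0.236). At EL the 10 fast fibre genes summed to between 33215 and 132333 CPM in Fert+ and between 10318 and 69843 CPM in Fert- cows, beside 100894 to 157948 CPM at LP. Their part in the LMOD1 difference was not tested.

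Markers of other cell types were few among the named genes. The 3 endothelial genes summed to between 107 and 210.4 CPM among Fert+ and between 128 and 203 CPM among Fert- cows at EL, with 0 of 3 at an unadjusted p under 0.05. At LP, where LMOD1 was higher in Fert+ cows in 48 of 64 pairs, they summed to between 89.8 and 121 CPM among Fert+ and between 116 and 160.3 CPM among Fert- cows, with VWF and TEK lower (-0.74 and -0.59) and CLDN5 higher (0.58) in Fert+ at an unadjusted p under 0.05, as were 3.56% of all genes in the first and 3.14% in the second direction. At EL RGS5, a pericyte marker, averaged 90.7 CPM among Fert+ and 104 CPM among Fert- cows (log2 fold change -0.20, SE 0.17). The 4 fibroblast genes summed to between 60.3 and 219 CPM among Fert+ and between 77.0 and 263 CPM among Fert- cows at EL, and 3 of 4 fell from LP to EL (24.8% of all genes) and 3 of 4 rose from EL to ML (28.5%), whereas on library totals 1 fell (7.17%) and 1 rose (8.36%). Among them LUM, a matrix proteoglycan, was at -1.03 between genotypes at EL (SE 0.44, adjusted p = 0.375). The 2 blood cell markers tested rose from LP to EL, as did 29.1% of all genes, or 57.6% on library totals, where both also rose, and their sum reached 12.03 CPM among Fert+ and 4.26 CPM among Fert- cows at EL against at most 2.04 CPM at LP. The 3 adipocyte genes summed to at most 33.3 CPM among Fert+ and 15.97 CPM among Fert- cows at EL. The part of these markers in the LMOD1 differences was not tested.

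Likeness to LMOD1 was measured as Pearson's r across the 48 muscle libraries with 12674 other genes, which share their libraries and depth, and it is given as a description. On values as measured, the closest genes were IGFN1 (r = 0.840), NKD2 (0.836), TNNC2 (0.835), TNNI2 (0.825) and MACROD1 (0.823). TNNC2 and TNNI2 are the calcium-binding and inhibitory subunits of fast troponin. With the 6 group means removed, the closest were ENSBTAG00000025778 (r = 0.667), PNCK (0.562), PFKM (0.555), ENSBTAG00000046514 (0.548) and IGFN1 (0.541). PFKM is the muscle form of phosphofructokinase in glycolysis and PNCK a calmodulin-dependent kinase. As measured, the named genes of the smooth muscle list ranked at 404 for SYNPO2 (r = 0.601), 1125 for ACTA2 (0.467), 2180 for CNN1 (0.340) and 4484 for MYL9 (0.133). On residuals they ranked at 3790 for SYNPO2 (r = 0.0970), 4677 for MYL9 (0.0602), 8405 for ACTA2 (-0.0798) and 8735 for CNN1 (-0.0915).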

How the data were processed

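LMOD1 and the gene lists were chosen with earlier results of these data known. The authors deposited raw read counts per gene, made per the study's methods with Trimmomatic, STAR, Samtools and featureCounts on bovine build UMD3.1 with Ensembl annotation, and the submitters' notes also name CASAVA 1.8. Counts were analysed as deposited, and 96 columns of tables without sample names were not used. Genes were filtered with filterByExpr, scaled with TMM and tested with edgeR 4.0.16 (quasi-likelihood, Benjamini-Hochberg, R 4.3.3), genotypes within a time-point over 16 libraries and time-points over the 48 libraries of a tissue. Changes within cows used log2(CPM + 1) and exact two-sided sign flips, and genotypes an exact permutation test (scipy 1.17.1). Samples were grouped by the labels. The labels give the same animal at each time-point, and libraries of the same cow deviated together with r above 0.1 in 42 of 48 muscle and 39 of 48 liver pairs. Genes were named from a set fixed by rule: LMOD1, all leiomodins and tropomodulins, the 4 most abundant members of each other list in muscle, the 2 smooth muscle and 2 SRF genes with the largest genotype difference at EL, and the 5 genes most like LMOD1. The text does not name every gene of that set. Those named for the fast fibre, slow fibre and fibroblast lists are examples. Symbols were known for 2153 genes. Alternatives were RLE factors, no gene filter, library totals, a pseudocount of 0.1, DESeq2 1.42.0, the edgeR exact test with a common dispersion, a cow block with limma 3.58.1, and leaving out libraries. Replicates are separate cows. The tests across genes were tested on simulated data.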

Additional observations from a re-analysis of the deposited data

Results flagged for a closer look

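LMOD1 in the liver of Fert- cow 829 at ML, at 11.4 CPM, lay far above the other 7 Fert- cows, of which the next had 5.90 CPM. The gap took a share of 0.607 of the range of the group, above Dixon's 95% critical value for 8 samples, a limit that chance passes in about 1 in 20 groups. LMOD1 has such a group for each tissue, time-point and genotype, and among that many groups a value past this limit can arise by chance. The library held 297 LMOD1 counts and was one of the 13 that stood apart. In it RGS5 was at 30.2 CPM (3.70 to 21.3 in the other 7), the 4 fibroblast markers summed to 531 CPM (148 to 436) and the 10 hepatocyte markers to 76450.2 CPM (89789.5 to 215632). Also outside the range of the other 7 were the sums of 6 skeletal muscle markers (52.1 CPM, 19.8 to 42.2), 2 leiomodins and tropomodulins (7.36 CPM, 3.96 to 5.23), 4 blood cell markers (11.4 CPM, 3.07 to 9.94) and 2 slow fibre genes (157 CPM, 168 to 210.4). The 4 smooth muscle genes lay within it (318 CPM, 178 to 325), as did the SRF, thin filament, fast fibre, endothelial and adipocyte lists. The part of these differences in the LMOD1 value was not tested.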

How the results depend on the processing

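The difference between genotypes in muscle kept its direction in each alternative, at 0.43 to 0.54 for LP, 1.07 to 1.30 for EL and 0.31 to 0.47 for ML, and without single cows at 0.37 to 0.58, 1.23 to 1.39 and 0.34 to 0.44. LMOD1 was chosen on muscle at EL, so the EL values are a description and no support. In the exact permutation test the ML difference passed the threshold (0.38, p = 0.00528). In muscle at EL, 1 gene was called over 16 libraries, but 564 in the fit over 48 libraries and 442 with the replicate block; the cause was not tested. On library totals the fall from LP to EL was -0.23 (adjusted p = 0.0682) and within cows -0.20 (exact permutation p = 0.151). The rise from LP to ML was 0.37 with RLE factors, 0.37 without the gene filter, 0.32 on library totals and 0.36 without the muscle libraries that stood apart, none past the threshold. With the replicate block, pairing the libraries of a cow, it was 0.41 (adjusted p = 0.00850), and the block changed no LMOD1 call (-0.56 from LP to EL). Liver differences changed sign on library totals at EL (0.068), without the liver libraries that stood apart at EL (0.045) and ML (0.011), and for the change from LP to ML on library totals (-0.059). Without single cows the liver differences ran from -0.42 to -0.19 at LP, -0.16 to -0.01 at EL and -0.37 to -0.01 at ML. Within-cow changes without single cows ran from -0.62 to -0.50, 0.89 to 1.01 and 0.35 to 0.44 in muscle (EL minus LP, ML minus EL, ML minus LP), and from -0.43 to -0.32, 0.00046 to 0.14 and -0.33 to -0.19 in liver, where ML minus LP without Fert- cow 426 was -0.33 (exact permutation p = 0.0359). The causes of these changes were not tested. Liver values rest on 29 to 297 counts per library, and the smallest difference that this depth could show was not tested.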
